A study of Mus musculus with 3 samples.

Results

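Naive CD8 T cells of the mouse colon were described in 3 droplet single-cell RNA libraries of CD45+ leukocytes, 1 library per group. A barcode was taken as a naive CD8 T cell when it had at least 1 UMI (unique molecular identifier, 1 counted transcript) of Cd8b1, at least 1 UMI of a CD3 chain (Cd3e, Cd3d or Cd3g) and at least 1 UMI of Lef1 or Dapl1. It also had to hold 0 UMIs of 7 genes of other cells, which were the effector genes Gzma, Gzmb, Gzmk and Ccl5, the gamma-delta T-cell gene Trdc and the B-cell genes Cd79a and Ms4a1. The cells were chosen by the measured UMIs of these 13 genes, whose levels are therefore a description and no result. Of 16690 cells that passed the quality limits, 495 met the rule.

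Library T1 came from colon with low-grade and library T3 from colon with high-grade intraepithelial neoplasia, and library C from healthy colon. The mice were C57BL/6, labelled male, and 6 to 8 weeks old at the start of the model. For T1 and T3, mice received the carcinogen azoxymethane (AOM, 12 mg/kg, intraperitoneal). They then drank 2.5% dextran sodium sulfate (DSS), which injures the colonic epithelium, in 3 cycles of 7 days, each followed by 14 days of water. The labels call C healthy control tissue, so neoplasia and the AOM and DSS treatment cannot be told apart in a comparison with C. How many mice were pooled per library is not given in the sources used here. With 1 library per group there is no replicate check, no test between groups was possible, and every interval below covers counting error only.

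Naive CD8 T cells leave the thymus with a T-cell receptor that has not yet met its antigen. They circulate through blood and lymphoid tissue, entering lymph nodes with the chemokine receptor CCR7 and leaving them through the lipid receptor S1PR1, whose gene is driven by the transcription factor KLF2. Interleukin 7 keeps them alive, and TCF-1 (Tcf7) and LEF-1 hold the naive gene programme. In the colon they are thought to lie mainly in lymphoid follicles and vessels, whereas effector and resident memory CD8 T cells populate the epithelium and lamina propria.

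The group T1 held 155 naive CD8 T cells among 6143 kept cells, T3 held 261 among 4543, and C held 79 among 6004. Kept cells had a median of 5272, 1803 and 4933 UMIs in T1, T3 and C, from totals of 37208603, 15898397 and 35489195 UMIs, so T3 was the shallower library. The naive CD8 T cells themselves were close in depth, with medians of 7496, 6254 and 7073 UMIs and 1707, 1669 and 1649 detected genes. Their summed UMIs were 1196904, 1627865 and 545208. Pairs of libraries shared 35 to 39 barcodes, and 0 of the naive CD8 T cells carried a barcode found among those of another library. Against the label of male mice, Xist, the RNA that coats the inactive X chromosome of females, was found in 80.6%, 80.1% and 74.7% of the cells in T1, T3 and C, and 4 Y-linked genes had 0 UMIs.

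Naive CD8 T cells made up a larger part of the CD45+ cells in T3 than in T1 and C. Their share of kept cells was 2.52% in T1 (exact Clopper-Pearson 95% interval 2.15 to 2.95), 5.75% in T3 (5.09 to 6.46) and 1.32% in C (1.04 to 1.64). That is 1.92-fold C in T1 and 4.37-fold C in T3, and 2.28-fold T1 in T3. As part of the cells with a CD3 chain UMI, which leaves out most B and myeloid cells, they were 5.85% in T1, 9.52% in T3 and 2.77% in C. Among cells with CD3 chain and Cd8b1 UMIs they were 38.7% (33.9 to 43.6) in T1, 47.8% (43.5 to 52.1) in T3 and 18.2% (14.7 to 22.2) in C. A CD8 T cell was thus more often of the naive kind in both neoplasia libraries than in C on this rule.

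Depth touches these shares, since a deeper cell more easily shows 1 UMI of any gene. When every kept cell was thinned to 1000 UMIs and the 485, 1198 and 423 shallower cells of T1, T3 and C were left out, the shares of kept cells were 0.848%, 2.45% and 0.645%. T3 stayed above C, at a log2 ratio of 1.93 (1.36 to 2.49), and above T1, at 1.53 (1.02 to 2.04). For T1 against C the thinned log2 ratio was 0.40 (-0.23 to 1.02), against 0.94 (0.55 to 1.33) as deposited, so this difference was not detectable at the thinned depth. Among thinned cells with CD3 chain and Cd8b1 UMIs the shares were 30.8% in T1, 38.1% in T3 and 16.9% in C, and the log2 ratio of T1 to C was 0.86 (0.32 to 1.41). That of T3 to C was 1.17 (0.68 to 1.67). For T3 against T1 it was 0.31 (-0.11 to 0.73), so among these cells a difference between T3 and T1 was not detectable at the thinned depth. A share can also move because other cells of the sort were more or fewer. B cells, taken with Cd79a and Ms4a1 and without a CD3 chain UMI, were 2458 of 6143 kept cells in T1, 631 of 4543 in T3 and 2319 of 6004 in C. As deposited, T3 was 2.28-fold T1 over kept cells, 1.63-fold over cells with a CD3 chain UMI and 1.24-fold over those with Cd8b1 too. The part that other cells had in the shares was not tested.

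**Figure D1:**
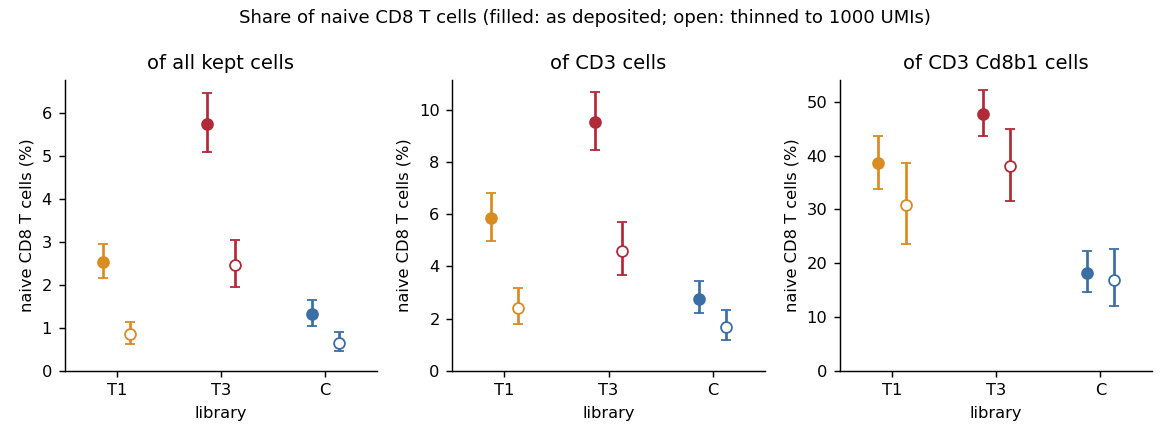
Share of naive CD8 T cells (y axis, percent) in libraries T1, T3 and C, over kept cells, cells with a CD3 chain UMI, and cells with CD3 chain and Cd8b1 UMIs. Filled points are as deposited and open points after thinning to 1000 UMIs, bars are exact 95% counting intervals, and T3 has the highest and C the lowest point in all 3 panels.

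Lef1 and Dapl1 chose partly different cells. Lef1 alone marked 76, 131 and 39 of the cells in T1, T3 and C, Dapl1 alone marked 5, 17 and 6, and both genes were found in 74, 113 and 34. Just inside the rule, 20, 29 and 10 cells rested on a single UMI of these genes. Just outside it, 23, 44 and 13 cells met all other terms without a Lef1 or Dapl1 UMI. Ccr7 was at 431, 347 and 335 CPM (a gene's UMIs scaled to a common total) in these thinly marked cells of T1, T3 and C and at 274, 292 and 140 CPM in the cells just outside. A further 53, 68 and 52 cells had a naive gene but failed on exactly 1 UMI of the 7 excluded genes, which is a larger number beside the 79 cells of C than beside the 261 of T3.

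Tcf7 and Ccr7, genes of naive T cells that the rule did not use, were detected in most of the cells. Tcf7 was at 282, 327 and 330 CPM in T1, T3 and C, found in 77.4%, 74.7% and 83.5% of the cells, against 0.895%, 3.17% and 1.38% of B cells. Ccr7 was at 470 CPM (432 to 511, exact Poisson 95% interval) in T1, 358 (329 to 388) in T3 and 391 (340 to 447) in C, and the interval of C overlaps those of both T1 and T3. B cells had 501, 562 and 457 CPM of Ccr7 in T1, T3 and C, so Ccr7 does not set the naive CD8 T cells apart from B cells. Bach2, a repressor that keeps T cells quiescent, was found in fewer cells, 38.7%, 30.7% and 29.1%. It was found in 43.9%, 42.3% and 41.0% of B cells, so it does not set the 2 apart either. Cd44, the adhesion receptor that marks T cells with antigen experience, was close to absent, with 5.85, 16.6 and 11 CPM and a UMI in 3.23%, 5.75% and 6.33% of cells. Mki67, a gene of dividing cells, had 1 UMI in T1 and 0 in T3 and C. Itga1, which encodes an integrin of resident T cells, had 0 UMIs in T1 and T3 and 3 in C.

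Next to cytotoxic CD8 T cells of the same library (Cd8b1, a CD3 chain and at least 1 UMI of Gzma, Gzmb, Gzmk or Ccl5), the naive cells had more Ccr7 and less Cxcr3 and Ifng in C. There Ccr7 was at 391 CPM in naive against 58.4 CPM in cytotoxic CD8 T cells. The chemokine receptor gene Cxcr3 was at 12.8 against 123 CPM, and Ifng, the gene of interferon gamma, at 9.17 against 556 CPM. In T3, Ccr7 was at 358 against 253 CPM, Cxcr3 at 5.53 against 82.2 CPM and Ifng at 1.23 against 75.5 CPM. In T1, Ccr7 was at 470 against 222 CPM, Cxcr3 at 10.9 against 120 CPM and Ifng at 0.835 against 239 CPM. The gap in Ccr7 was thus wider in C than in T1 and T3, while that in Cxcr3 and Ifng was wide in all 3 libraries. There were 125, 152 and 233 cytotoxic cells in T1, T3 and C, with median depths of 7107, 6486 and 6278 UMIs.

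Some genes that are common in effector and natural killer cells were present in the naive cells of every library. Nkg7, which encodes a granule membrane protein, was at 315, 275 and 359 CPM in T1, T3 and C, found in 70.3%, 59.4% and 65.8% of cells. Klrd1, which encodes the receptor chain CD94, was at 136, 138 and 152 CPM. Naive CD4 T cells, taken with Cd4 and Lef1 and without Cd8b1, Cd8a, Foxp3 and the effector and other-lineage genes of the rule, had 43.7, 4.14 and 31.3 CPM of Nkg7, and B cells had 4.11, 2.03 and 8.16 CPM. The share of cells with an Nkg7 UMI was 2.16%, 0.792% and 3.41% in B cells, at median depths of 5220, 3945 and 4785 UMIs, far below that of the naive CD8 T cells. After thinning, the shares were 26.6%, 25.2% and 22.8% in naive CD8 T cells of T1, T3 and C and at most 1.09% in B cells. Ccr9, the receptor that brings lymphocytes to the gut, was at 55.1, 66.3 and 51.4 CPM, against 6.79, 1.77 and 4.27 CPM in naive CD4 T cells. It was not particular to the naive CD8 T cells. Cytotoxic CD8 T cells had 28.8, 21.1 and 49.2 CPM of Ccr9 in T1, T3 and C. CD8 T cells just outside the rule, without Lef1 or Dapl1, had 93.6, 76.9 and 31.1 CPM, on 13, 10 and 2 UMIs. Itgae, the integrin that binds epithelial E-cadherin, was at 31.7, 41.2 and 25.7 CPM, against 2.26, 1.77 and 0 CPM in naive CD4 T cells.

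**Figure D2:**
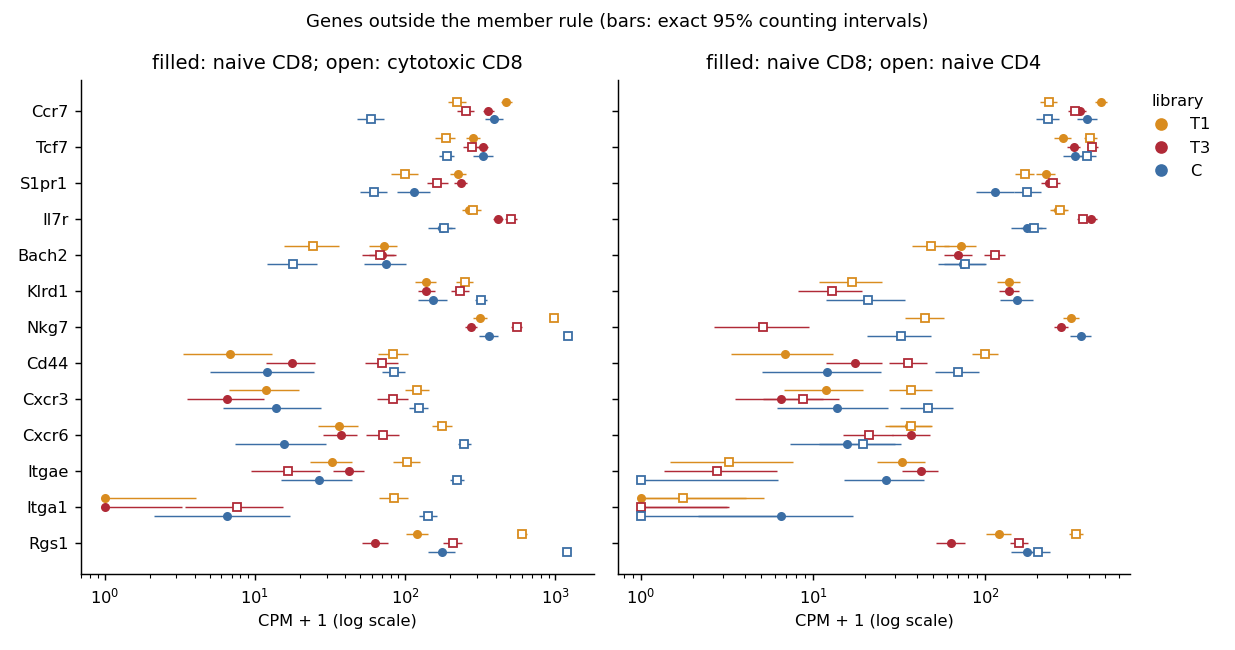
CPM + 1 on a log axis (x) of genes outside the rule (y) in libraries T1, T3 and C. Filled circles are naive CD8 T cells, open squares are cytotoxic CD8 T cells on the left and naive CD4 T cells on the right, and bars are exact 95% counting intervals; in C, Ccr7 lies higher and Cxcr3 and Cd44 lower in naive than in cytotoxic CD8 T cells.

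Il2rb, the receptor chain for interleukins 2 and 15 that memory-like CD8 T cells carry, was found in 49, 63 and 18 of the naive cells of T1, T3 and C. Cells with an Il2rb UMI had 316 CPM of Nkg7 and those without had 314 CPM in T1, and the values were 311 and 261 CPM in T3. In C they were 477 and 314 CPM. Eomes, a transcription factor of memory-like and effector CD8 T cells, had 34 UMIs in C, of which 23 fell in the 18 cells with Il2rb. Ly6c2, a surface protein of memory and some naive CD8 T cells, was at 195 CPM with and 107 CPM without Il2rb in T1, a log2 ratio of 0.87 (0.41 to 1.32), and at 83.3 and 71.0 CPM in T3. The Il2rb cells were also the deeper ones, with medians of 8249 against 7305 UMIs in T1, 7437 against 6059 in T3 and 7837 against 6331 in C.

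T-cell receptor segments were varied. A Trbv segment, the variable part of the receptor's beta chain, was seen in 20, 32 and 11 cells of T1, T3 and C as 3′ libraries seldom cover it. They held 12, 13 and 8 distinct segments. The commonest was Trbv12-2 in 5 of the 20 cells of T1 (25%, 8.66 to 49.1), Trbv19 in 6 of the 32 cells of T3 (18.8%, 7.21 to 36.4) and Trbv12-2 in 3 of the 11 cells of C (27.3%, 6.02 to 61.0). A Trav segment was seen in 34, 51 and 21 cells, with 25, 33 and 16 distinct segments. The intervals are wide, and neighbouring Trav copies are near identical, so their identity is uncertain.

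RNA of other cells was present and differed between libraries. Haemoglobin transcripts were found in 195 of the 261 cells of T3 (74.7%) and had 0 UMIs in T1 and C, and 4 genes of the erythroid list summed to 4523 CPM in T3. Most T3 cells held few such UMIs, with a median of 1, but 9 held at least 10, and 1 cell held 3667 among its 5198 UMIs. The neutrophil genes S100a8 and S100a9 had 2, 2023 and 0 UMIs in T1, T3 and C, of which 1971 lay in a single T3 cell. The 14 B-cell markers ran the other way, with summed levels of 860, 367 and 1148 CPM in T1, T3 and C, led by Igkc at 397, 65.1 and 629 CPM. A Cd4 UMI was found in 10, 26 and 9 of the cells. Markers of gamma-delta T and natural killer cells summed to 22.6, 15.4 and 11 CPM with Ncr1, a defining gene of natural killer cells, at 0 in all 3 libraries, and epithelial markers summed to 3.34, 7.99 and 14.7 CPM with Cdh1 at 0. How far RNA of other cells enters the gene levels below was not tested.

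Genes were compared between libraries as CPM over the summed UMIs of the naive CD8 T cells. A gene was counted as higher or lower by size where the 2 levels lay 2-fold or more apart and the gene had at least 100 UMIs over both libraries. In T1 against C, 9 of 1536 genes were higher (0.586%) and 7 lower (0.456%). In T3 against C, 109 of 2162 were higher (5.04%) and 26 lower (1.2%), which together are 6.24%. With each cell thinned to 1000 UMIs this balance turned, to 8 higher and 13 lower of 300 genes. Those 300 are the genes that kept at least 100 UMIs after thinning, so depth and the choice of genes cannot be told apart there. At a minimum of 200 UMIs without thinning, 31 of 1003 genes were higher and 11 lower in T3 against C. In T3 against T1, 106 of 2658 were higher (3.99%) and 11 lower (0.414%), together 4.4%. Both comparisons with C share its 79 cells. The scaling moved the balance for the comparisons with T1. With edgeR's TMM factors the counts were 16 higher and 5 lower in T1 against C, and 43 higher and 26 lower in T3 against T1. With median-of-ratios size factors they were 15 and 5 in T1 against C and 37 and 29 in T3 against T1, and with totals that leave out ribosomal protein and mitochondrial genes 14 and 5 in T1 against C. TMM factors moved every log2 ratio by 0.13 in T1 against C, by -0.05 in T3 against C and by -0.17 in T3 against T1, and size factors by 0.12, -0.09 and -0.21.

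Jun and Fosb were lower in the naive CD8 T cells of both neoplasia libraries than in C, and Fos, Jund, Dusp1 and Dusp2 in those of T3. Immediate early genes such as these are switched on within minutes of many stimuli, among them signals from the T-cell receptor and the handling of tissue, and most encode transcription factors of the AP-1 family (Fos, Jun and their relatives), zinc finger factors or phosphatases that curb the signal. The 250 bases before the start of the 3 AP-1 genes with the lowest ratios to C are shown because the genes moved together, from RefSeq on GRCm38.p6, written 5′ to 3′ on the strand of each gene. The Jun window is chr4:95052223-95052472 (minus strand), the Fosb window chr7:19310046-19310295 (minus strand) and the Fos window chr12:85473640-85473889 (plus strand), and 3 of 3 genes were matched. Capitals mark the letters TGACG, the core of the cAMP response element, and TGACNTCA, where N is any base, on both strands.
Jun: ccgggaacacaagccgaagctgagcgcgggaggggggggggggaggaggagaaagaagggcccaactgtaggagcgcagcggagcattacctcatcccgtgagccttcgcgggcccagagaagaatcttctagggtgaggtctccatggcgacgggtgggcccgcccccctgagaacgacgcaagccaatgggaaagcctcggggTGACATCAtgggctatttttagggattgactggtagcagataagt
Fosb: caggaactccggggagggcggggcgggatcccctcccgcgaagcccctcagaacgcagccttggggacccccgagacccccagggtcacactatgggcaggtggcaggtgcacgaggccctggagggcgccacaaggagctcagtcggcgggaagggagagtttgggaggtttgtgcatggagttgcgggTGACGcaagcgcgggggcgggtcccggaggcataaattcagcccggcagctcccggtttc
Fos: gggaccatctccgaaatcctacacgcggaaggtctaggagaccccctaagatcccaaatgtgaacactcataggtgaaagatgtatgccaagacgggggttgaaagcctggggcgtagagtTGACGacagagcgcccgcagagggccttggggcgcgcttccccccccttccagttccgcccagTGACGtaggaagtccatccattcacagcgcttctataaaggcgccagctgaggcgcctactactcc
The Jun window held TGACNTCA 45 bases before the start, the Fosb window held TGACG 60 bases before it, and the Fos window held TGACG 129 and 66 bases before it. The motifs were chosen after the windows had been seen, a full palindromic element would count under both, and 17.8% of the 32851 promoter windows of this length hold TGACG and 7.49% hold TGACNTCA. A match describes the letters only.

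Jun, which pairs with Fos proteins to form AP-1, was at 927 CPM (1110 UMIs) in T1, 498 CPM (811 UMIs) in T3 and 2166 CPM (1181 UMIs) in C. Its log2 ratio to C was -1.22 (exact conditional interval -1.34 to -1.10) in T1 and -2.12 (-2.25 to -1.99) in T3. Fos was at 816, 479 and 1339 CPM, and its log2 ratio was -0.71 (-0.85 to -0.57) for T1 over C and -1.48 (-1.63 to -1.33) for T3 over C. Fosb, a close relative of Fos, was at 207, 178 and 622 CPM, and its log2 ratio was -1.59 (-1.83 to -1.34) for T1 over C and -1.8 (-2.03 to -1.57) for T3 over C. C was highest for all 3 genes. T3 was below T1 for Jun and Fos, whereas the interval of Fosb took in no difference between T3 and T1 (-0.47 to 0.03). Dusp1 and Dusp2, phosphatases that switch off MAP kinases, were also highest in C, with Dusp1 at 373, 226 and 664 CPM and Dusp2 at 262, 237 and 528 CPM.

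Over the whole list, 1 gene was higher and 3 lower in T1 against C of 15 with at least 100 UMIs, with a median log2 ratio of -0.71 beside -0.05 over all genes tested. In T3 against C, 2 were higher and 6 lower of 16, with a median of -0.86 beside 0.06. Of all genes tested, 0.586% were higher and 0.456% lower in T1 against C, and 5.04% and 1.2% in T3 against C. The lower genes in T3 were Fos, Fosb, Jun, Jund, Dusp1 and Dusp2, and in T1 Fosb, Jun and Dusp2. Dusp2 lay at -1.01 in T1 against C and did not pass under the 3 other scalings, which left 2 lower genes there, Fosb and Jun. Junb went its own way in T1, at 2821 CPM against 2641 CPM in C, while it was at 1712 CPM in T3. Fosl2 and Nr4a3, both in this list, were higher in T3. Fosl2 was also the 1 higher gene in T1, with a log2 ratio to C of 1.17 (0.50 to 1.91) on 22 UMIs in C. Fosl2, another AP-1 member, was at 91.1, 137 and 40.4 CPM in T1, T3 and C. Nr4a3, an orphan nuclear receptor induced by T-cell receptor signals, was at 30.1, 75.6 and 14.7 CPM, on 36, 123 and 8 UMIs.

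Cell by cell the libraries overlapped. The list took a median of 0.779% of a cell's UMIs in T1 (0.0676 to 2.69), 0.587% in T3 (0.0155 to 2.30) and 1.29% in C (0.0597 to 3.37). Below the median of C lay 123 of the 155 cells of T1 (79.4%) and 245 of the 261 cells of T3 (93.9%). Cells with few and with many of these transcripts were therefore found in every library, and the groups differed in how many there were of each.

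**Figure D3:**
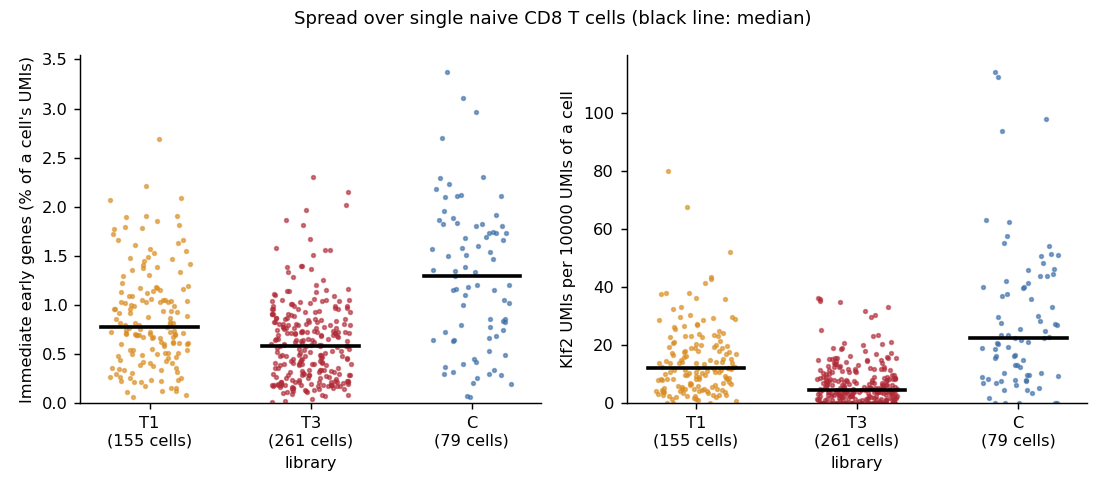
Single naive CD8 T cells of libraries T1, T3 and C (points, with the number of cells and the median as a black line). On the left is the percentage of a cell's UMIs from 21 immediate early genes and on the right the Klf2 UMIs per 10000 UMIs; the medians are 0.779, 0.587 and 1.29% and 12.0, 4.55 and 22.4, and the ranges overlap.

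Jun and Fosb were lower outside the naive CD8 T cells too. In naive CD4 T cells the log2 ratio of Jun to C was -1.51 in T1 and -2.06 in T3, and that of Fosb was -1.52 in T1 and -1.63 in T3. In barcodes without a CD3 chain UMI, which take in the B and myeloid cells, Jun was at 744, 1000 and 2270 CPM in T1, T3 and C. The whole list summed to 9222, 10006 and 14513 CPM there, against 8871, 6025 and 12936 CPM in the naive CD8 T cells. Other cells of the libraries thus shared the lower level. What part the preparation of each library had in it cannot be told apart from the group.

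Klf2 (GRCm38 chr8:72319033-72321656, plus strand, GENCODE annotation) came next to Jun among the lower genes of T3 against C. It was at 1544 CPM (1848 UMIs) in T1, 691 CPM (1125 UMIs) in T3 and 2854 CPM (1556 UMIs) in C. The log2 ratio was -0.89 (-0.98 to -0.79) in T1 against C, -2.05 (-2.16 to -1.93) in T3 against C and -1.16 (-1.27 to -1.05) in T3 against T1. The counting intervals of these ratios lie away from 0, though single cells of the libraries overlapped, with medians of 12.0, 4.55 and 22.4 UMIs per 10000 in T1, T3 and C. In B cells Klf2 was also lower in the neoplasia libraries, at 902, 817 and 3112 CPM. The cells that stood out were those of T1, where naive CD8 T cells had 1544 CPM and naive CD4 T cells had 723 CPM. The log2 ratio of T1 to C was 0.74 (0.59 to 0.90) higher in naive CD8 than in naive CD4 T cells, and that of T3 to C differed by -0.14 (-0.30 to 0.02).

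S1pr1, a target of KLF2, was higher in the library where Klf2 was lowest. It was at 224 CPM (268 UMIs) in T1, 234 CPM (381 UMIs) in T3 and 114 CPM (62 UMIs) in C, and its log2 ratio was 0.98 (0.57 to 1.40) for T1 over C and 1.04 (0.65 to 1.45) for T3 over C. S1pr1 was found in 71.0%, 69.0% and 44.3% of cells as deposited and in 23.4%, 19.3% and 13.9% after thinning. Il7r, the receptor for the survival cytokine interleukin 7, was at 265, 413 and 174 CPM, and its log2 ratio was 0.60 (0.27 to 0.95) for T1 over C and 1.24 (0.93 to 1.57) for T3 over C. Thinning the cells brought the T3 ratio of Il7r to 0.73. Satb1, a chromatin organiser of T cells, was at 511, 716 and 356 CPM, and Actn1, which encodes an actin crosslinker, at 162, 249 and 117 CPM. For S1pr1, Il7r, Satb1 and Actn1 both neoplasia libraries were above C.

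Of the 24 naive and egress genes with at least 100 UMIs, 4 were higher in T3 than in C, which were S1pr1, Il7r, Satb1 and Actn1, and Klf2 was lower. The median log2 ratio was 0.24, beside 0.06 over all genes tested, of which 5.04% were higher and 1.2% lower. The higher genes were 2, Il7r and Actn1, with TMM factors or without the cells that held a Cd4 UMI, and 1, Il7r, with size factors. In T1 against C, 0 of 22 passed in either direction, with a median of -0.02 beside -0.05, and 1 gene, S1pr1, was higher under each of the 3 other scalings. Tcf7, Bach2 and Igfbp4 had intervals that took in no difference in both comparisons with C. Bcl2, which blocks cell death, was at 128, 112 and 205 CPM in T1, T3 and C and did not reach 2-fold. In T3 against T1, Itga6 was higher, at 78.0 against 35.9 CPM, and Klf2 lower, of 24 genes, and with TMM or size factors 0 were higher.

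**Figure D4:**
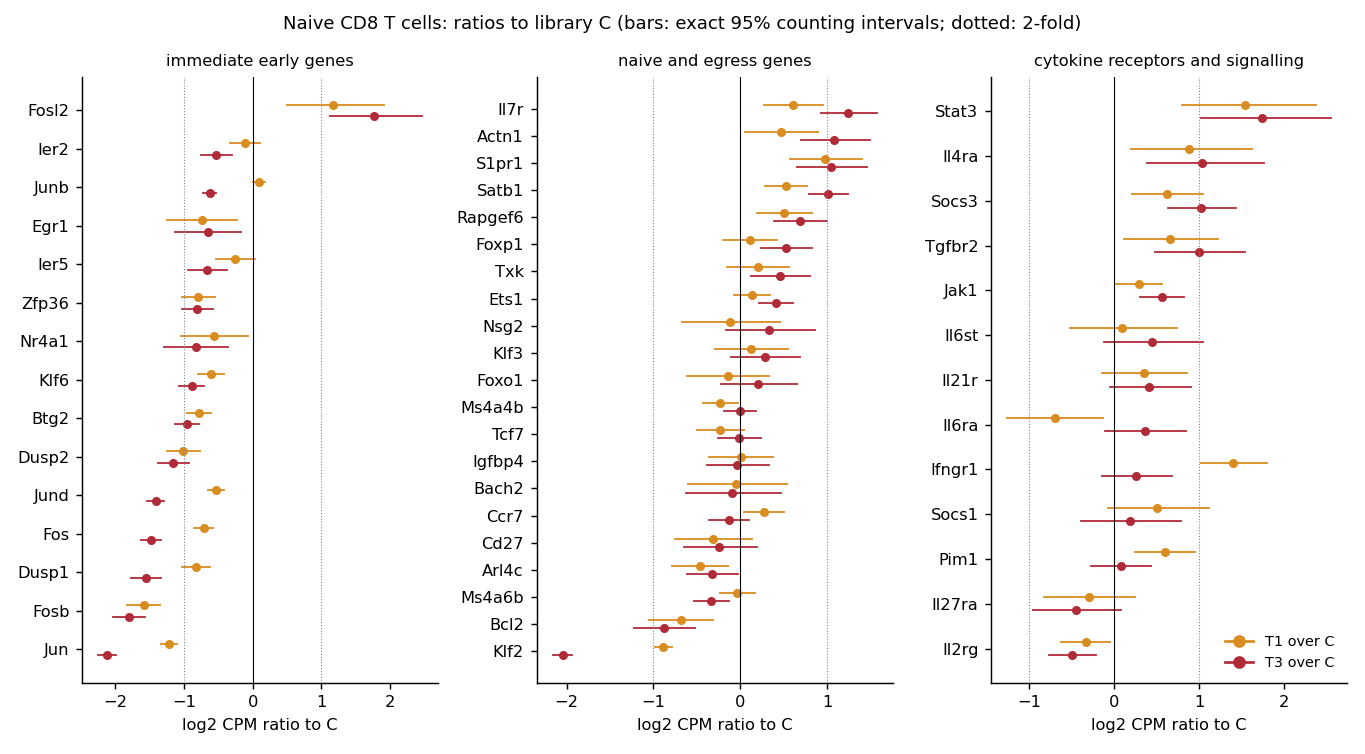
Log2 CPM ratio to C (x axis) of list genes (y axis) in naive CD8 T cells of T1 and T3, for immediate early genes, naive and egress genes, and cytokine receptors and signalling. Bars are exact 95% counting intervals and dotted lines mark 2-fold; Jun, Klf2 and Stat3 lie at -2.12, -2.05 and 1.74 in T3.

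Stat3 was higher in both neoplasia libraries than in C, and some cytokine receptor genes in one of them. Stat3 (chr11:100885098-100939540, minus strand), the transcription factor that carries signals of interleukins 6, 10 and 21, was at 91.1 CPM (109 UMIs) in T1, 104 CPM (170 UMIs) in T3 and 31.2 CPM (17 UMIs) in C. Its log2 ratio to C was 1.55 (0.80 to 2.38) in T1 and 1.74 (1.02 to 2.56) in T3, on few UMIs in C. In naive CD4 T cells the ratio was 0.22 in T1 and 0.69 in T3, and the ratios of the CD8 cells were higher by 1.33 (0.48 to 2.18) in T1 and 1.06 (0.24 to 1.87) in T3. Il4ra, the receptor chain for interleukins 4 and 13, was at 74.4, 82.9 and 40.4 CPM, and Socs3, an inhibitor of STAT3 signals, at 178, 235 and 116 CPM.

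Ifngr1 (chr10:19591949-19610229, plus strand), a receptor chain for interferon gamma, was highest in T1. It was at 319 CPM (382 UMIs) in T1, 145 CPM (236 UMIs) in T3 and 121 CPM (66 UMIs) in C. The log2 ratio was 1.40 (1.02 to 1.8) in T1 against C, 0.26 (-0.14 to 0.68) in T3 against C and -1.14 (-1.38 to -0.90) in T3 against T1. Thinning brought the ratio of T1 to C down to 0.52. Naive CD4 T cells had the same order, at 299, 199 and 154 CPM, and cytotoxic CD8 T cells had 464, 272 and 275 CPM. Of 13 cytokine receptor and signalling genes, Ifngr1 and Stat3 were higher and 0 lower in T1 against C, with a median of 0.51. Of all genes tested there, 0.586% were higher, with a median of -0.05. Of 15 genes of this list in T3 against C, Il4ra, Stat3 and Socs3 were higher and 0 lower, with a median of 0.41. Of all genes tested there, 5.04% were higher, with a median of 0.06. With TMM factors or size factors 1 of the 3 list genes higher in T3 passed, Stat3. Tgfbr2 was added in T3, making 4, without the cells rich in haemoglobin or S100a8 or without those with a Cd4 UMI. In T1 against C, Il4ra was added, making 3, with TMM factors or without the cells that held a Cd4 UMI.

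Of the interferon-stimulated genes, 0 of 8 passed the size rule in T1 against C, 1 of 10 in T3 against C and 1 of 13 in T3 against T1. Over all genes tested the shares were 1.04%, 6.24% and 4.4%, so a list this short cannot show a low share. Isg15, a ubiquitin-like protein made under interferon, was at 94.4, 38.1 and 47.7 CPM in T1, T3 and C, with a log2 ratio of -1.31 (-1.78 to -0.85) in T3 against T1. Ifi206 was higher in T3, at 122 CPM against 58.7 CPM in C. In T1 against C, 0 of 8 genes of this list passed, 7 of the 8 had a ratio above 0, and the median was 0.34 beside -0.05 over all genes tested. Isg15, at 0.99 there, passed under the 3 other scalings and without the cells that held a Cd4 UMI. Ifi206 in T3 against C did not pass with size factors or without those cells. MHC class I genes and the CD8 and T-cell receptor genes had 0 calls of 13 to 16 genes in all 3 comparisons. Lists this short cannot show a low share either. B2m, the shared light chain of MHC class I, was at 2186, 2264 and 2115 CPM, and Cd8a at 207, 291 and 310 CPM.

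Of the cAMP genes, Crem, Pde4b and Fosl2 were higher in T3 than in C. Crem, a repressor and activator that answers cAMP, was at 66.0 CPM (79 UMIs) in T1, 76.2 CPM (124 UMIs) in T3 and 20.2 CPM (11 UMIs) in C, and the 11 UMIs of C leave a wide interval of 1.03 to 2.96 around the T3 log2 ratio of 1.92. Pde4b, which breaks cAMP down, was at 84.4, 115 and 49.5 CPM. With Fosl2, which the immediate early list holds too, these were 3 of 11 genes with at least 100 UMIs. In T3 against C, 0 genes of the list were lower, with a median of 0.63 beside 0.06 over all genes tested. Of all genes tested, 5.04% were higher and 1.2% lower. Without the cells that held a Cd4 UMI, 2 of the 3 higher list genes passed, Crem and Fosl2. In T1 against C, Fosl2 was higher and 0 were lower of 5 list genes, beside 0.586% higher and 0.456% lower of all genes tested. Naive CD4 T cells had Crem log2 ratios of 2.14 for T1 over C and 1.99 for T3 over C. Crem was also higher in barcodes without a CD3 chain UMI, at 131, 114 and 47.7 CPM in T1, T3 and C.

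Of the genes of activation and tissue residency, Cd69 and Rgs1 were lower and Icos higher in T3 than in C. Cd69, which holds T cells in tissue by binding S1PR1, was at 386, 254 and 605 CPM in T1, T3 and C, and its log2 ratio was -0.65 (-0.86 to -0.44) for T1 over C and -1.25 (-1.47 to -1.04) for T3 over C. Rgs1, which dampens chemokine receptors and is high in resident T cells, was at 119, 62.0 and 174 CPM. Its log2 ratio to C was -0.54 in T1 and -1.49 (-1.91 to -1.07) in T3, while in naive CD4 T cells it was 0.75 in T1 and -0.36 in T3. Icos, a costimulatory receptor, was higher in T3, at 96.4 against 45.9 CPM in C. Of 7 genes in T3 against C, Icos was higher and Cd69 and Rgs1 lower, beside 5.04% higher and 1.2% lower of all genes tested. Icos did not pass with size factors. Zfp683, a transcription factor of resident T cells, and Havcr2, an inhibitory receptor gene, had 0 UMIs in all 3 libraries. Among heat shock genes, Hspa1a, an inducible chaperone, was at 902, 646 and 1399 CPM and was the 1 of 10 that passed in T3 against C. It did not pass without the cells that held a Cd4 UMI.

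Further genes that led the comparison of T1 with C were Vps37b, which encodes an endosomal sorting protein, at 651, 568 and 301 CPM in T1, T3 and C, and Dusp10, a phosphatase of stress kinases, at 150, 154 and 66.0 CPM. Gramd3, Cd7 and P2ry10 were higher as well, with Gramd3 at 229 against 112 CPM in C, Cd7 at 72.7 against 29.3 CPM and P2ry10 at 84.4 against 42.2 CPM. Klf4, a factor of quiescence, was lower in T1, at 63.5 against 147 CPM in C, and Lgals1, which encodes galectin 1, at 56.0 against 130 CPM. Tsc22d4 was the last of the lower genes, at 67.7 against 136 CPM. The naive CD4 T cells had a log2 ratio of 0.08 (-0.20 to 0.37) for Lgals1 and 0.01 (-0.33 to 0.35) for Tsc22d4 in T1 against C.

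T3 against C was led by Tpm3-rs7, at 177 CPM against 7.34 CPM. This near-identical copy (chr14:113314608-113316754, plus strand) of Tpm3 (chr3:90072649-90100902, plus strand), a tropomyosin gene, cannot be told apart from it with certainty. Tpm3 had 417, 267 and 194 UMIs and Tpm3-rs7 had 7, 288 and 4 UMIs in T1, T3 and C, and their sum was level at 354, 341 and 363 CPM. The log2 ratio of the sum was -0.09 (-0.33 to 0.15) in T3 against C, so how reads were split between the copies may differ between libraries and neither gene is reported as changed. Other leading genes were Map3k1, a kinase upstream of JNK, at 78.6 against 20.2 CPM, Hipk1, a nuclear kinase, at 92.1 against 25.7 CPM, and Fryl at 99.5 against 25.7 CPM. Map3k1 rested on 11 UMIs in C, and thinning brought its log2 ratio down to 0.49, where it no longer reached 2-fold. Rif1, which guards replication timing and DNA breaks, was at 89.7 against 27.5 CPM. Sesn3, which encodes a sestrin, was higher in T3, at 118 against 45.9 CPM. It was the 1 of 3 genes of leucine transport and sensing with at least 100 UMIs, beside 5.04% of all genes tested.

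Among the genes named as higher in T3 than in T1 were several with roles in chromatin. The gene lists held none for chromatin, so whether such genes are more common here than among all genes tested was not tested. Atrx, a chromatin remodeller, was at 224 CPM (364 UMIs) in T3 against 101 CPM (121 UMIs) in T1. Its log2 ratio was 1.15 (0.84 to 1.45). TMM and size factors moved the ratios of this comparison by -0.17 and -0.21, which left Atrx under 2-fold. They left 43 and 37 of the 106 higher genes of this comparison by count. The higher genes were also longer in the median than all genes tested, 8.58 against 4.46 kb of exons. Kmt2c, a histone methyltransferase, was at 106 against 40.1 CPM, Smarca2, a subunit of the SWI/SNF remodeller, at 73.1 against 25.1 CPM, and Uhrf2 at 78.6 against 29.2 CPM. Kcnq1ot1, a long non-coding RNA that silences neighbouring genes at an imprinted locus, was at 122 against 35.1 CPM, beside 103 CPM in C, and here the naive CD4 T cells had 104 against 89.0 CPM. Vps13a, Zbtb44 and Rassf2 were also higher, with log2 ratios of 1.58, 1.68 and 1.56. The lower genes named, besides Tpm3 with its uncertain split, were Klf2, Ifngr1, Isg15, Gstp3, Cirbp and Psmd13. Cirbp, a cold-inducible RNA-binding protein, was at 38.7 against 78.5 CPM.

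**Figure D5:**
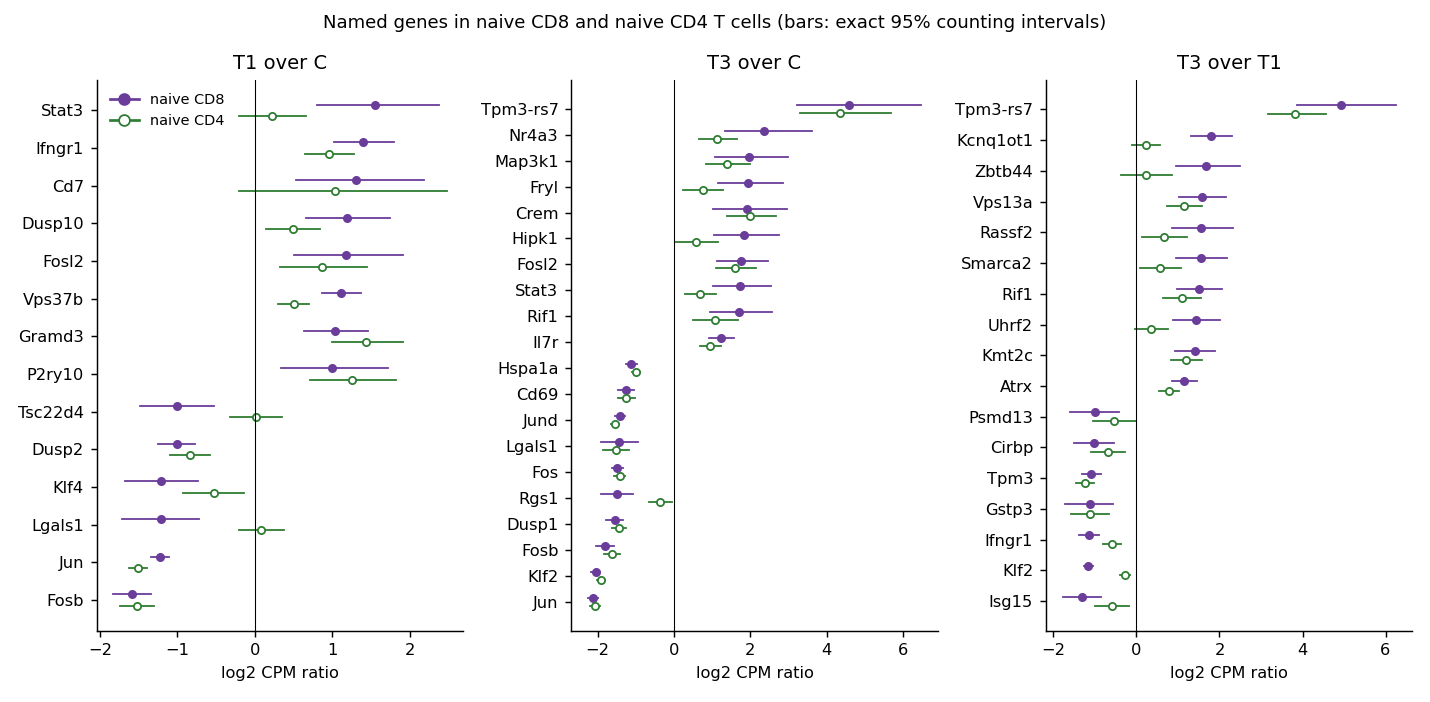
Log2 CPM ratio (x axis) of the named genes (y axis) in naive CD8 (filled) and naive CD4 T cells (open) for T1 over C, T3 over C and T3 over T1, with exact 95% counting intervals as bars. Klf2 in T3 over T1 is at -1.16 in naive CD8 and -0.28 in naive CD4 T cells.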

How the data were processed

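Sorted CD45+ colon cells went into 10x Genomics 3′ V3.1 libraries, per the labels' protocols. The values deposited by the authors are raw UMI counts, 1 whole number for each gene in each barcode. Per the submitters' processing notes, GRCm38, Seurat 3.1.4, Cell Ranger 3.1.0 and CASAVA 1.8 were used, with no roles stated. No source used here tells whether intronic reads were counted. The lowest total of a deposited barcode was 500 UMIs.

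Barcodes with under 200 detected genes (292, 173 and 164 in T1, T3 and C) or over 20% mitochondrial UMIs (2131, 1063 and 1735) were left out. No doublet caller was run, so mixed droplets remain. Cells and gene lists were chosen with earlier results of these data known. UMIs were summed per library over the naive CD8 T cells and scaled to CPM. Intervals at 95% are Poisson for a level, conditional binomial for a ratio and Clopper-Pearson for a share, and a normal approximation for a ratio of shares. Differences of ratios between CD8 and CD4 cells have normal-approximation intervals. The code was tested on simulated data.

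Up to 10 genes per direction and comparison were named, in the order of the interval bound nearest to 0. They had to pass the size rule, have an interval that excludes no difference and be found in at least 5% of cells in 1 library. Mitochondrial, ribosomal protein, receptor segment, predicted and rule genes were left out. So were genes under 20% of their CPM in barcodes without a CD3 chain UMI. Genes of the 21 lists could be named too, and 1 of their 317 entries was not matched.

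Alternatives were other scalings (edgeR 4.0.16 for TMM factors only), filters, folds, thinning, other marker rules and removal of mixed cells. Python 3.11.15, numpy 2.4.6, scipy 1.17.1, pandas 2.3.3 and R 4.3.3 were used. Promoter sequences are from RefSeq and gene lengths from GENCODE on GRCm38. A further gene of the lists is not reported here.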

Additional observations from a re-analysis of the deposited data

Results flagged for a closer look

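Barcodes above the limit of 20% mitochondrial UMIs were left out of all comparisons, yet some of them otherwise met the rule for naive CD8 T cells. They were 1 of 2131 such barcodes in T1 (0.0469%, 0.00119 to 0.261), 36 of 1063 in T3 (3.39%, 2.38 to 4.66) and 3 of 1735 in C (0.173%, 0.0357 to 0.504). The T3 value stood out because it lay above that of C in barcodes that the report does not use. Among the kept naive CD8 T cells the median mitochondrial share was 4.83%, 5.48% and 5.0% in T1, T3 and C.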

How the results depend on the processing

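The share of kept cells was highest in T3 in 12 of 12 settings, and T1 was above C in 11 of 12. Thinning gave 0.848%, 2.45% and 0.645% in T1, T3 and C, and requiring both Lef1 and Dapl1 gave 1.20%, 2.49% and 0.566%. Over cells with a CD3 chain UMI the shares were 5.85%, 9.52% and 2.77%, and over those with Cd8b1 too 38.7%, 47.8% and 18.2%. In T3 a limit of 10% mitochondrial UMIs gave 7.48% and a minimum of 500 genes 8.02%. Leaving out every cell with a UMI of Cd4, Cd79b, Igkc, Cd74, Lyz2, S100a8 or Epcam gave 0.0326%, 2.53% and 0.117%, the exception in which T1 was below C. It left 2, 115 and 7 cells, since Igkc UMIs were in 95.5%, 28.0% and 78.5% of them. With so few cells 4 ratios changed sign, which were Vps37b in T1 against C (-0.35), Crem in T3 against C (-0.54), and Zbtb44 (-0.86) and Atrx (-1.48) in T3 against T1.

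Genes past the size rule numbered 16, 135 and 117 in T1 against C, T3 against C and T3 against T1. They numbered 77, 366 and 324 at 50 UMIs, 4034, 4657 and 4136 without a minimum and 8, 42 and 36 at 200 UMIs. A 1.5-fold limit gave 111, 523 and 563, thinned cells 5, 21 (8 higher and 13 lower) and 11, and cells with both markers 8, 46 and 39. TMM factors gave 69 and size factors 66 in T3 against T1, and the cells without other-lineage UMIs 7 in T1 against C. Leaving out the cells rich in haemoglobin or S100a8 gave 16, 129 and 106. This alternative was chosen after seeing the data, as were leaving out the cells with a Cd4 UMI and leaving out those over 15000 UMIs. Of 488 values of the 51 named ratios under all alternatives, 422 moved little, 62 moved beyond their interval and 4 changed sign; the cause was not tested.

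No paired analysis was possible because each group has 1 library, and leaving out a replicate was not possible for the same reason. The 79 cells of C limit every comparison with it, and genes under 100 UMIs were not counted.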

Other observations

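The genes higher in T3 were longer in the median than all genes tested. Their annotated exons had a median length of 8.58 kb for the 106 genes higher in T3 than in T1 and 8.38 kb for the 109 higher in T3 than in C, beside 4.46 and 4.45 kb over all genes tested in these comparisons. The median span from start to end was 58.6 and 60.2 kb, beside 21.5 and 20.5 kb. The 11 genes lower in T3 than in T1 had a median exon length of 1.85 kb, and the 26 lower in T3 than in C 2.48 kb. In T1 against C the median exon length was 2.98 kb for higher and 3.19 kb for lower genes, beside 3.63 kb over all, and the median span was 22.04 kb and 3.74 kb, beside 15.1 kb. The part of gene length in these differences was not tested.

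Ribosomal protein transcripts took 469639, 436485 and 443851 CPM of the naive CD8 T cells in T1, T3 and C. Of the ribosomal protein genes with at least 100 UMIs, 70 of 83 had a negative log2 ratio in T3 against T1, with a median of -0.15, and 0 reached 2-fold. Hypoxia and glycolysis genes had 0 calls in all 3 comparisons, with medians of -0.13, -0.26 and 0.02 in T1 against C, T3 against C and T3 against T1. Cell cycle genes, of which 3 of 15 had at least 100 UMIs, also had 0 calls. Effector and memory genes outside the rule had 0 calls of 6, 7 and 7. Over all genes tested 1.04%, 6.24% and 4.4% were called, so the hypoxia, cell cycle and effector lists are too short to show a low share.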
